A study of Mus musculus with 48 samples.

Results

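Wild-type mouse embryonic stem cells treated with cycloheximide (CHX) were compared with untreated cells of the same lines, in 8 of the 48 samples of the study, 4 libraries per condition. The libraries were chosen by their labels and are the wild-type (WT) libraries of the CHX experiment, from 2 lines with 2 replicates each per condition. The study concerns NRDE2, CCDC174 and MTREX, nuclear proteins of RNA processing and decay, and it added CHX so that transcripts removed by translation-dependent surveillance could be seen. Libraries were made from total RNA after removal of ribosomal RNA, with strand kept, and read from one end over 50 bases, so RNAs without a poly(A) tail, such as histone mRNAs, are in the libraries.

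All cells were male stem cells of a mixed 129-C57BL/6 background, grown in serum with LIF and inhibitors of GSK-3 and MEK. CHX was given at 0.1 mg/ml for 4 h from a stock in DMSO, and the labels call the control cells untreated without saying whether they received DMSO. The Nrde2 line carries floxed Nrde2 alleles and an inducible Cre recombinase that was not induced in these WT cells. The Ccdc174 line carries CCDC174 fused to an FKBP12 degradation domain, was made in a line with floxed, tagged Nrde2, and received no dTAG-13, the compound that triggers degradation. Each line is a clone, and the study reports that the tag itself has minor effects on expression. Below, the values of 4 libraries are always given in the order Nrde2 line replicates 1 and 2, then Ccdc174 line replicates 1 and 2, in the deposited unit, counts per 1e6 reads (CPM), divided by a scaling factor per library, and means are ± SD with n = 4.

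CHX stalls elongating ribosomes on mRNA. Nonsense-mediated decay, which removes mRNAs with premature stop codons, needs translation, as does the rapid decay of histone mRNAs when DNA synthesis stops. CHX is also known from other cells to raise the mRNAs of immediate early genes, whose products are made within minutes of a signal, and to stop the replacement of short-lived proteins such as p53, MDM2 and the inhibitor of NF-kB.

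The 8 libraries held between 36.1 and 40.4 M reads by the authors' scaling, of which 31.9 to 36.3 M lay in genes (88.6% to 92.1%). Untreated libraries had reads in 24800 to 24960 genes and CHX libraries in 26915 to 27876. In a principal component analysis of 10368 genes, the first component (71.0% of the variance) separated CHX from untreated libraries and the second (22.9%) separated the lines. Replicates correlated across genes with r from 0.994 to 0.996, where genes are not independent replicates. The cells carried the markers of undifferentiated stem cells: Pou5f1, the core pluripotency factor, had 985, 1049, 779.5 and 809 CPM untreated and 622, 642, 468 and 467 with CHX, and Nanog, Sox2, Zfp42, Esrrb, Dppa5a and Tfcp2l1 were all above 150 CPM in every library of this set. Labels do not say whether replicates were separate cultures, so the p values below measure a spread between libraries that may be technical.

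CHX changed 2139 of 14895 tested genes by more than 2-fold (14.4%; limma, Benjamini-Hochberg adjusted p under 0.01), 1749 upward (11.7%) and 390 downward (2.62%). These shares are the background for the counts of list members below. Increased genes included immediate early genes, NF-kB targets, signalling feedback genes and almost every replication-dependent histone gene, and decreased genes included p53 targets, tubulins and part of the ribosomal protein genes. The median log2 fold change was 1.46 among increased genes and −1.27 among decreased genes, beside −0.01 over all genes (interquartile range −0.36 to 0.49). More than 4-fold changes were seen in 386 increased and 33 decreased genes, and more than 8-fold in 67 and 2. At any fold, 4661 genes were higher and 4610 lower at adjusted p under 0.01, and in 7419 genes (49.8%) the CHX and untreated libraries did not overlap. That share is the background for statements of no overlap below. For genes named as the largest increases or decreases, no overlap was a condition of their choice. Increased genes had a median of 1.45 CPM untreated, decreased genes 10.5 and all genes 17.5. Genes were tested from a mean of 0.5 CPM over both conditions, so a gene near 0 untreated was tested only if it was higher with CHX. Since 0.25 is added to CPM before log2 is taken, the fold changes of low genes are understated. They are relative to the median gene, since neither the RNA per cell nor the number of cells was measured, and fewer cells and less RNA per cell cannot be told apart in these bulk libraries. With CPM as deposited, the median of all genes was 0.20 in place of −0.01, with 2353 genes increased and 230 decreased.

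**Figure D1:**
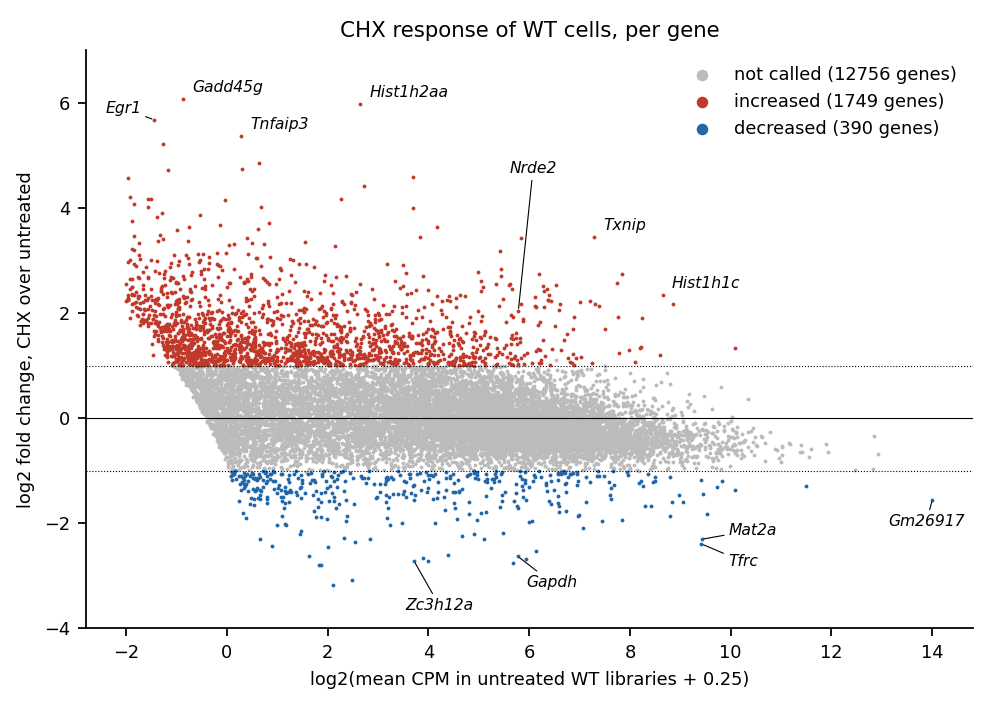
Log2 fold change of each of 14895 genes, CHX over untreated WT libraries, against log2 of the mean untreated CPM plus 0.25; red points are the 1749 increased genes, blue points the 390 decreased genes and grey points those not called, with dotted lines at log2 fold changes of 1 and −1. Large increases are mostly of genes low in untreated cells, such as Gadd45g (6.08), and Gm26917 is the most abundant decreased gene (−1.55). Only genes with a mean of 0.5 CPM over both conditions are plotted, so genes near 0 untreated appear only if they are higher with CHX.

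Immediate early and early response genes encode transcription factors and stress sensors that are switched on first after a signal, and 2 of them, Gadd45g and Egr1, are among the 10 largest increases of protein-coding genes with at least 5 CPM in the higher condition and no overlap, beside 4 histone genes. Gadd45g (ENSMUSG00000021453, chr13:51846678-51848468 of GRCm38), a stress-response gene of the GADD45 family, had 0.660, 0.276, 0.140 and 0.113 CPM untreated and 50.4, 44.9, 24.3 and 24.9 with CHX. All CHX libraries were above 20 CPM and all untreated ones below 1, a log2 fold change of 6.08 ± 0.33 (95% confidence interval; adjusted p = 1.3e-11). The zinc finger factor Egr1 had 0.0900, 0.123, 0.112 and 0.142 CPM untreated and 16.9, 23.5, 14.5 and 20.2 with CHX (log2 fold change 5.68, adjusted p = 2.4e-11). Fos and Junb encode subunits of AP-1. Fos had 1.71, 1.44, 1.04 and 1.25 CPM untreated and 24.5, 24.5, 23.5 and 30.6 with CHX, which leaves no overlap (log2 fold change 4.02, adjusted p = 1.5e-10). Junb had 22.9, 32.6, 9.41 and 5.89 CPM untreated and 202, 191, 165 and 164 with CHX, and its untreated level was lower in the Ccdc174 line than in the Nrde2 line (log2 fold change 3.63, adjusted p = 7.2e-08). Of 51 members tested, 16 increased, 3 decreased and 32 were not called, with a median log2 fold change of 0.43, beside 11.7% of all genes increased and 2.62% decreased. The list holds 56 genes, and the others were under the limit for testing. Gadd45g and Egr1, at means of 0.297 and 0.117 CPM untreated, reached the mean of 0.5 CPM needed for testing only through their CHX libraries. The count therefore leans towards members that rose. The increased members included Atf3 (2.72), Klf10 (2.41), Ccn2 (2.28) and Jun (2.16), chosen after their values were seen. The decreased members were the nuclear receptor Nr4a1, from 27.6 ± 4.86 to 7.62 ± 1.49 CPM (−1.83), the kinase Plk3 (−1.52) and the antiproliferative gene Btg2 (−1.23). Other early genes were not called: Sgk1, the most abundant member, had 732, 747, 526 and 719 CPM untreated and 567, 534, 389 and 428 with CHX (log2 fold change −0.51, not called). Ier2 (0.76) is a further example. Myc had 12.2, 25.04, 18.6 and 17.6 CPM untreated and 21.5, 31.6, 15.4 and 12.3 with CHX, which overlap (log2 fold change 0.09, adjusted p = 0.732). Its fold change was −0.22 without Nrde2WT_noCHX replicate 1 and −0.11 without Nrde2WT_CHX replicate 2.

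**Figure D2:**
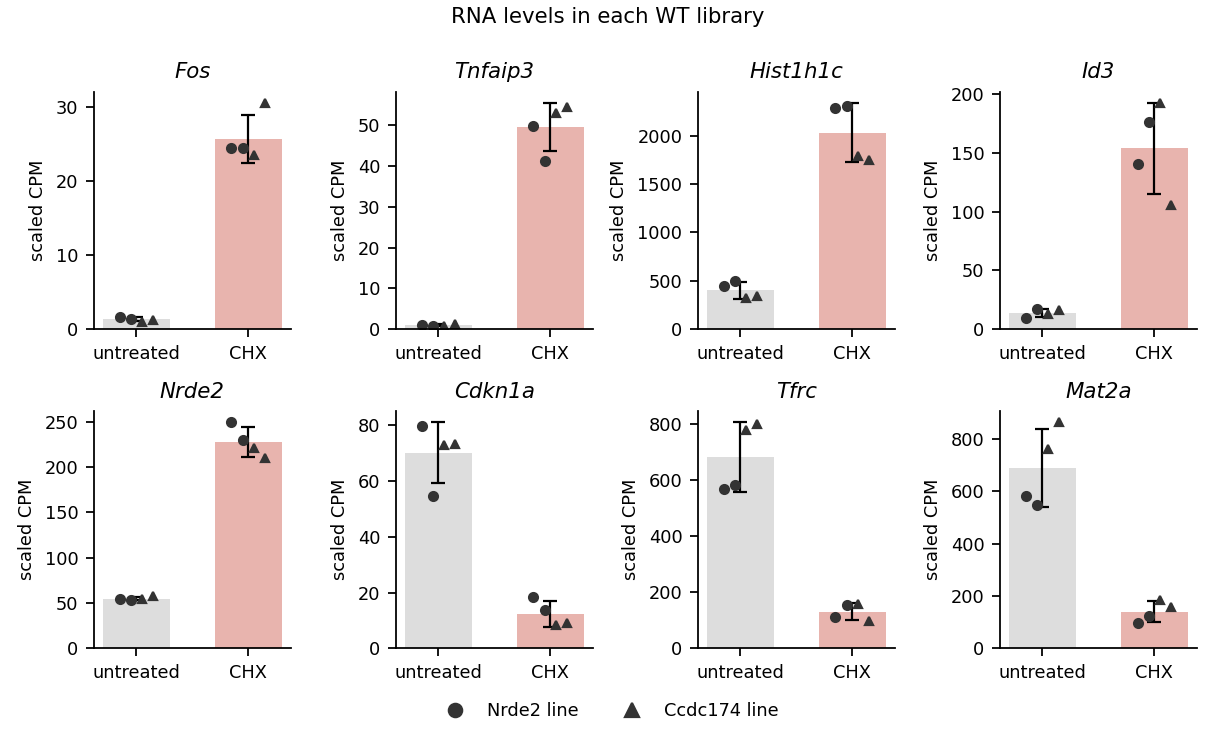
CPM in each WT library for 8 genes, untreated and with CHX; bars are means of 4 libraries, error bars SD, circles the Nrde2 line and triangles the Ccdc174 line. For each of the 8 genes the CHX and untreated libraries do not overlap: Fos, Tnfaip3, Hist1h1c, Id3 and Nrde2 are higher with CHX, and Cdkn1a, Tfrc and Mat2a lower.

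NF-kB is held in the cytoplasm by inhibitor proteins and, once free, switches on inflammatory genes together with its own inhibitors. Tnfaip3 (ENSMUSG00000019850, chr10:19000910-19015657), which encodes the feedback inhibitor A20, had 1.08, 0.706, 0.814 and 1.27 CPM untreated and 49.8, 41.4, 52.99 and 54.4 with CHX. The CHX level was 41.4-fold higher on the fitted scale (log2 fold change 5.37 ± 0.30, adjusted p = 1.3e-11). It is one of the 10 largest increases, which were chosen among genes without overlap. The inhibitor gene Nfkbia had 26.5, 27.2, 16.8 and 16.9 CPM untreated and 84.1, 78.7, 78.2 and 66.4 with CHX (log2 fold change 1.84, adjusted p = 3.9e-09). The adhesion molecule Icam1 had 73.7, 82.3, 43.9 and 32.7 CPM untreated and 268, 241, 162 and 145 with CHX (log2 fold change 1.86, adjusted p = 3.8e-09). In each of these genes all 4 CHX libraries were above all 4 untreated ones. Of the 14 members tested, 6 increased and 1 decreased (median 0.76), beside 11.7% of all genes increased and 2.62% decreased. The list holds 20 genes, and the others were under the limit for testing. Low genes pass that limit more readily if they rise with CHX, so the count leans upward. Nfkbie (1.61), another inhibitor, and the subunit gene Relb (1.24) were increased, and the nuclear inhibitor Nfkbid was decreased, from 7.68 ± 1.76 to 2.53 ± 0.490 CPM (−1.50).

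The promoters of these genes are shown because 6 of the members increased. In RefSeq promoters of GRCm38.p6, from 250 bases before to 50 after the start, 10781 tested genes had an entry, and a match to the NF-kB consensus on either strand lay in 12.5% of them and in 11.2% of increased genes. In the NF-kB list, 8 of the 11 genes with an entry had a match (72.7%), so the match was not particular to increased members. Among the 8 were 3 of the 5 increased ones. A match of each of those 3 genes is printed, for Tnfaip3 1 of 2 matching positions, with the consensus in capitals, 5′ to 3′ on the plus strand.
Tnfaip3, chr10:19015405-19015430: gccaacagGGGGATTTCCgatggaaa
Nfkbia, chr12:55492659-55492684: caggcgcgGGGAATTTCCaagccagt
Nfkbie, chr17:45555586-45555611: agcaaacaGGGGGATTCCggaggggc
A CArG box, the binding motif of serum response factor, was matched in 1.503% of all promoters and in 4 of 41 immediate early promoters (9.76%). The letters TATAAA were found on either strand in 8.70% of all promoters, 12.9% of those of increased genes, 11.2% of those of decreased genes and 11 of 41 immediate early promoters (26.8%), among them 6 of the 13 of increased genes. A match is a description of the sequence and does not show binding.

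AU-rich elements in the 3′ untranslated region (UTR) are known to shorten mRNA lifetime. The nonamer TTATTTATT was found in the 3′ UTR of 7.12% of 12919 protein-coding genes, 8.84% of the increased and 12.3% of the decreased ones, so it was somewhat more frequent on both sides. Both groups also had longer 3′ UTRs, with medians of 1027.5 and 1115 bases beside 948 over all genes, and this was not separated. The shorter motif ATTTA had a median of 1.58 per kb in increased, 1.01 in decreased and 1.20 in all genes. Carriers of the nonamer had a median log2 fold change of 0.11. Carriers also include Tnfaip3 (5.37) and, among the large decreases, Mat2a (−2.30), whose sites are not printed. The sites of 3 genes with large increases are printed because this element is known from early response mRNAs, with the nonamer in capitals on the strand of the mRNA.
Fos, chr12:85477105-85477129, plus strand: ttttcaatTTATTTATTaagatgga
Zc3h6, chr2:129017653-129017677, plus strand: tctatagtTTATTTATTttttaaat
Tcim, chr8:24437653-24437677, minus strand: ttttaaaaTTATTTATTatgcattg
Zc3h6, which encodes a CCCH zinc finger protein, had 0.900, 1.14, 1.18 and 0.737 CPM untreated and 30.8, 35.9, 35.5 and 28.3 with CHX (4.74, adjusted p = 3.4e-11). Tcim had 0.120, 0.0920, 0.281 and 0.170 CPM untreated and 10.5, 11.7, 20.999 and 19.1 with CHX (5.21, adjusted p = 2.4e-11). Both were below 1.5 CPM in every untreated library and above 10 in every CHX library.

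Genes that report on signalling pathways and restrain them formed a further set. The ID proteins block basic helix-loop-helix factors and are direct targets of BMP signalling, which helps maintain the stem cell state. Id2 had 3.81, 5.28, 4.04 and 4.99 CPM untreated and 105, 117, 90.1 and 46.1 with CHX (log2 fold change 4.16, adjusted p = 2.9e-09). Id3 had 9.84, 16.9, 12.7 and 16.4 CPM untreated and 141, 176, 192 and 106 with CHX (log2 fold change 3.44, adjusted p = 7.8e-09). Id1 had 10.3, 15.95, 5.39 and 3.54 CPM untreated and 72.3, 101, 59.1 and 27.9 with CHX (log2 fold change 2.93, adjusted p = 1.3e-07). All 3 genes were higher in each CHX library than in any untreated one, and Id4 increased as well (1.96). Of 36 signalling feedback genes tested, 12 increased and 2 decreased (median 0.32), beside 11.7% of all genes increased and 2.62% decreased. The Wnt target Sp5 rose in both lines from different untreated levels, with 1.92, 2.55, 0.533 and 0.368 CPM untreated and 18.5, 17.6, 5.19 and 4.68 with CHX (2.89). Dusp6 (2.43) and Spry2 (1.49), which restrain MAP kinase signalling, and Socs3 (2.25), which restrains LIF signalling, were increased too. Both decreased members were Lefty genes, secreted inhibitors of Nodal. Lefty2 had 548, 776, 789.7 and 668 CPM untreated and 214, 283, 281 and 237 with CHX (log2 fold change −1.45, adjusted p = 1.5e-07). Lefty1 had 48.3, 90.8, 14.8 and 23.8 CPM untreated and 12.9, 21.9, 3.82 and 2.96 with CHX; both lines were lower with CHX, but the conditions overlap because the Ccdc174 line started lower (log2 fold change −2.18, adjusted p = 1.5e-06). Without the line in the model its adjusted p was 0.0288.

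Replication-dependent histone genes supply histones in S phase, and their mRNAs end in a stem-loop in place of a poly(A) tail. Of 59 tested, 57 increased and 2 were not called, with a median log2 fold change of 2.21. Summed over the 59 genes, histone RNA stood at 7326, 8686, 5303 and 5132 CPM untreated and at 30242, 31364, 22272 and 20860 with CHX. The sums were higher in the Nrde2 line than in the Ccdc174 line in both conditions, and each line was higher with CHX. All nucleosome parts took part: 5 of 6 H1 genes increased (median 2.13), 13 of 14 H2A genes (2.18), and all 16 H2B (2.46), 11 H3 (1.93) and 12 H4 genes (2.33). The linker histone Hist1h1c (ENSMUSG00000036181, chr13:23738808-23740367) had 442, 502, 319 and 344 CPM untreated and 2289.7, 2301, 1785 and 1750.5 with CHX (log2 fold change 2.35 ± 0.12, adjusted p = 9.8e-12). Hist1h1d (2.17) and Hist1h1a (1.33), the most abundant member of the list, increased as well. Hist1h2aa, with the largest change of the list, and Hist1h2ba are H2A and H2B genes known from testis and lie side by side on chromosome 13. Hist1h2aa had 8.82, 7.92, 3.12 and 4.28 CPM untreated and 489, 487, 255.1 and 292 with CHX (log2 fold change 5.98, adjusted p = 3.5e-13). Hist1h2ba had 13.7, 14.4, 10.5 and 12.1 CPM untreated and 403, 375, 236 and 257 with CHX (log2 fold change 4.59, adjusted p = 4.7e-13). The 2 members not called were Hist1h1b (−0.16) and Hist2h2ab (−0.26), named because they are the exceptions. Histone mRNAs are alike in sequence, and reads with several equal positions were not counted; a median of 43.8% of the 50-base windows of these mRNAs had an exact copy elsewhere in the genome. Of the 11 histone genes with copies of under 10% of their windows, 10 increased (median 2.35). Among 11 histone genes with other names, mostly replacement histones and chosen after values were seen, 1 increased: the linker histone H1f0, from 32.5 ± 5.40 to 199 ± 18.8 CPM (2.61); the median of the 11 was −0.15, and H3f3b was at 0.86 and not called.

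The consensus of the histone mRNA stem-loop was searched in annotated 3′ UTRs on the mRNA strand. It was found in 37 genes (0.286% of 12919), of which 36 increased, with a median log2 fold change of 2.18; they include 35 of the 46 histone genes with an annotated 3′ UTR. The stem-loops of 4 increased genes are printed, in capitals and on the plus strand, because this element is shared by the members.
Hist1h1c, chr13:23739507-23739532: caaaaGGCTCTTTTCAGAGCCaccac
Hist1h1d, chr13:23555782-23555807: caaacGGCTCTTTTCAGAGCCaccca
Hist3h2a, chr11:58955167-58955192: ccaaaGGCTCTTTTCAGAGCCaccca
Hist3h2ba, chr11:58949344-58949369: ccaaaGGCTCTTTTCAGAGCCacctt
Hist3h2a had 1.47, 1.23, 1.49 and 1.02 CPM untreated and 48.4, 40.2, 51.7 and 37.6 with CHX (4.85, adjusted p = 2.4e-11). Its neighbour Hist3h2ba had 7.02, 7.64, 6.23 and 4.39 CPM untreated and 149, 162, 139 and 106 with CHX (4.42, adjusted p = 9.8e-12). In the same stretch of chromosome 11, the pseudogenes Hist3h2bb-ps (chr11:58954048-58954512) and Gm12260 (chr11:58961812-58962222) increased too. Hist3h2bb-ps had 2.07, 1.41, 1.63 and 1.05 CPM untreated and 24.2, 24.1, 24.7 and 18.8 with CHX (3.72), and Gm12260 rose from 12.7 ± 1.49 to 212 ± 60.3 CPM (4.00).

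Nonsense-mediated decay and RNA processing genes were examined because the study used CHX to block surveillance. The 22 decay factors had a median log2 fold change of −0.05, and 2 increased, a share not above the 11.7% of all genes: Secisbp2, a selenocysteine insertion factor, with 31.97, 36.7, 39.5 and 36.2 CPM untreated and 84.02, 88.1, 83.9 and 82.03 with CHX (1.23), and Pnrc2, a decapping adaptor, with 52.003, 53.05, 75.3 and 85.7 CPM untreated and 118, 109, 163 and 155 with CHX (1.04). Each CHX library was above each untreated one for both genes. The most abundant member, the translation release factor Etf1, was at 768 ± 31.3 CPM untreated and 490.0 ± 63.96 with CHX (−0.66, not called). The core helicase Upf1 (0.05) and the kinase Smg1 (0.17), chosen after their values were seen, were not called. Among 47 hnRNP and other RNA-binding protein genes that are known to control their own splicing, 2 increased (median −0.24). These were the splicing kinase Clk4, from 43.7 ± 7.50 to 102 ± 14.04 CPM (1.22), and the neuronal splicing factor Ptbp2, from 31.6 ± 5.94 to 70.002 ± 14.2 CPM (1.13). Hnrnpu, the most abundant of them, was at −0.52 and not called. The 13 SR and TRA2 splicing factor genes, whose poison exons are known decay substrates, all lay under 2-fold at gene level, between −0.54 and 0.37 (median −0.17), and Srsf1, the most abundant, was at −0.41. Per-gene counts do not separate isoforms, so the level of a poison exon was not measured. With CPM as deposited, the medians of the decay factors and of the SR factors were above 0.

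Host genes of small nucleolar RNAs (snoRNAs) split in both directions. Their spliced RNAs carry short reading frames and several are known substrates of nonsense-mediated decay. Snhg15 had 43.6, 40.6, 53.3 and 62.4 CPM untreated and 229.9, 224, 326 and 317 with CHX (log2 fold change 2.45, adjusted p = 7.0e-12). Snhg17 had 50.8, 50.1, 50.3 and 53.2 CPM untreated and 200.5, 195, 195 and 193 with CHX (log2 fold change 1.93, adjusted p = 8.2e-12). Snhg1 had 117, 116, 111 and 121 CPM untreated and 404, 418, 367 and 329 with CHX (log2 fold change 1.70, adjusted p = 2.0e-10). The conditions did not overlap for any of the 3, and Zfas1 (1.52) and Epb41l4aos (1.29) increased as well. In contrast, Dancr (ENSMUSG00000106943) had 13.05, 15.3, 15.2 and 15.1 CPM untreated and 1.87, 2.20, 2.66 and 1.78 with CHX (log2 fold change −2.66, adjusted p = 2.4e-09), and Snhg20 (−1.55) and Snhg3 (−1.34) decreased. Of 18 tested, 5 increased, 3 decreased and 10 were not called (median 0.14). Gas5, a host gene known to be degraded by this pathway in other cells, had 200.4, 207, 199 and 201 CPM untreated and 204, 217, 167 and 143 with CHX (−0.16, not called, and 0.06 with CPM as deposited). Its untreated libraries lie within the range of the CHX libraries.

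The targeted genes of the study responded unequally in WT cells. Nrde2 (ENSMUSG00000021179, chr12:100125452-100159653) had 54.8, 53.2, 54.2 and 57.4 CPM untreated and 249, 229, 221 and 209.9 with CHX. The 4 untreated libraries lay within 5 CPM of each other and every CHX library was at least 150 CPM above them, a log2 fold change of 2.04 ± 0.12 (adjusted p = 2.2e-11). It was 2.14 in the Nrde2 line and 1.95 in the Ccdc174 line. Ccdc174 (ENSMUSG00000034083) had 33.98, 31.7, 28.9 and 29.04 CPM untreated and 64.1, 57.5, 49.3 and 49.2 with CHX, higher without overlap but under 2-fold (0.82, adjusted p = 7.0e-08; not called). Mtrex (ENSMUSG00000016018), the helicase of the nuclear exosome, had 261, 253, 199 and 203 CPM untreated and 224, 224, 174 and 162 with CHX (−0.22, not called).

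Many of the zinc finger genes named Zfp encode KRAB-containing repressors. Of 339 tested, 111 increased, 2 decreased and 226 were not called, with a median log2 fold change of 0.73 beside −0.01 over all genes. The share was high at middle levels too: among the 176 with 10 to 50 CPM untreated, 51 increased and 1 decreased (median 0.71), where 5.80% of all protein-coding genes in that range increased. Zfp677 had 1.02, 1.04, 1.68 and 1.42 CPM untreated and 13.2, 14.1, 24.4 and 23.1 with CHX (log2 fold change 3.59, adjusted p = 6.7e-11). Zfp128 had 2.40, 3.47, 2.16 and 1.73 CPM untreated and 24.4, 19.2, 16.5 and 19.8 with CHX (log2 fold change 2.94, adjusted p = 2.2e-09). Both rose in all libraries, as did Zfp608 (3.90) and Zfp612 (2.72). One of the 2 decreased members was Zfp296, a regulator of stem cell heterochromatin, from 61.4 ± 11.2 to 9.41 ± 1.72 CPM (−2.67, adjusted p = 3.4e-11). Zfp42 (REX1), the most abundant member and a stem cell marker, was at 726 ± 83.6 CPM untreated and 614 ± 15.97 with CHX (−0.24, not called).

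**Figure D3:**
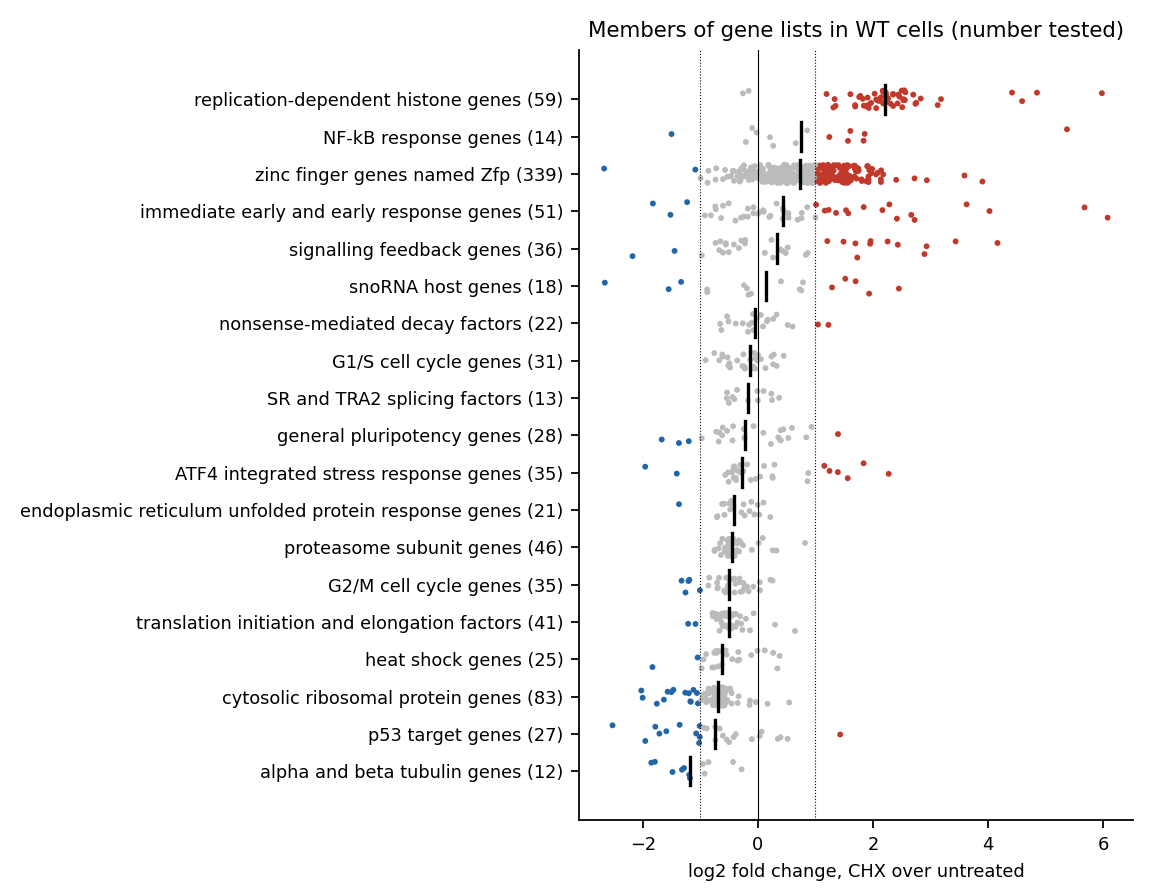
Log2 fold change (CHX over untreated WT libraries) of the tested members of 19 gene lists, with the number tested in brackets; each point is a gene, red for increased, blue for decreased and grey for not called, the black bar is the list's median and dotted lines mark 1 and −1. Histone genes have the highest median (2.21) and alpha and beta tubulin genes the lowest (−1.19); with CPM as deposited, the medians of G1/S genes, SR and TRA2 factors and decay factors lie above 0 in place of below.

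Stress pathways adjust protein synthesis and folding. ATF4 drives amino acid synthesis and transport genes when translation initiation is restrained. Its target list had 6 increased and 2 decreased of 35 members (median −0.27), beside 11.7% of all genes increased and 2.62% decreased. In so short a list these counts are near the shares of all genes, and no enrichment was tested. Ddit3 (CHOP), a proapoptotic factor, had 2.699, 3.50, 3.45 and 2.07 CPM untreated and 11.5, 12.7, 16.7 and 19.8 with CHX (log2 fold change 2.27, adjusted p = 1.9e-07). Stc2 (1.84), Nupr1 (1.56), Chac1 (1.39) and Atf4 itself, from 221 ± 23.5 to 522 ± 38.6 CPM (1.24), increased. Slc38a2, a transporter of neutral amino acids, had 191, 195, 161 and 149.8 CPM untreated and 52.1, 57.5, 39.8 and 32.4 with CHX and decreased (log2 fold change −1.96, adjusted p = 4.9e-10), as did Sesn2 (−1.41). Asns, asparagine synthetase and the most abundant member, had 1251, 1093, 1533 and 1659 CPM untreated and 1178, 1012, 1280.3 and 1353 with CHX, which overlap (−0.19, not called, and 0.04 with CPM as deposited). Of 25 heat shock genes, 2 decreased and 23 were not called (median −0.63). Hspa8, the constitutive HSP70, had 832, 717, 730.1 and 661 CPM untreated and 195, 244, 196 and 191 with CHX (−1.83, adjusted p = 4.8e-10); 75.7% of its 50-base windows have an exact copy elsewhere. The inducible Hspa1b, with copies of 62.3%, was at 5.17 ± 0.475 CPM untreated and 2.44 ± 0.754 with CHX (−1.05), a call that was lost with 1 added to CPM (−0.87), with CPM as deposited (−0.84) and without Nrde2WT_noCHX replicate 1 (−0.95) or Nrde2WT_CHX replicate 1 (−0.94). Hsp90ab1, the most abundant, was at −0.98 and not called. Of 21 genes of the unfolded protein response in the endoplasmic reticulum, 1 decreased (median −0.42): Herpud1, with 14.5, 13.7, 14.8 and 14.02 CPM untreated and 5.37, 6.02, 5.51 and 4.56 with CHX (−1.37). Calr (−0.48), Hspa5 (−0.50) and Xbp1 (0.02; −0.03 without Nrde2WT_CHX replicate 1) were not called.

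The transcription factor p53 has a short-lived protein and drives genes of cell cycle arrest, DNA repair and cell death. Cdkn1a (ENSMUSG00000023067, chr17:29090976-29100727), the cell cycle inhibitor p21, had 79.9, 54.6, 72.9 and 73.5 CPM untreated and 18.4, 13.7, 8.51 and 9.19 with CHX. The drop was seen in every library (log2 fold change −2.53 ± 0.39, adjusted p = 6.9e-08). Phlda3, a repressor of AKT, had 72.7, 70.7, 60.1 and 61.4 CPM untreated and 21.005, 13.6, 14.97 and 18.6 with CHX (log2 fold change −1.96, adjusted p = 1.4e-08). Ccng1, cyclin G1 and the most abundant member, had 438, 393, 665 and 620.3 CPM untreated and 156, 121, 202 and 225 with CHX, lower in both lines from different levels (log2 fold change −1.59, adjusted p = 2.0e-09). Polk (−1.78) and Zmat3 (−1.71) decreased as well. Of 27 tested, 10 decreased, 1 increased and 16 were not called (median −0.74), beside 2.62% of all genes decreased. The increased member was Rrm2b, a ribonucleotide reductase subunit, with 7.23, 7.33, 11.6 and 13.1 CPM untreated and 20.3, 20.3, 30.5 and 36.1 with CHX (1.43). Members near the 2-fold limit were Mdm2, from 203 ± 18.6 to 100.4 ± 9.94 CPM (−1.01), and Bbc3 (−1.02). The Mdm2 call was lost with CPM as deposited (−0.79), with edgeR (−0.98) and without Ccdc174WT_CHX replicate 1 (−0.97), Nrde2WT_noCHX replicate 1 (−0.96) or Nrde2WT_CHX replicate 2 (−0.96), and the Bbc3 call with 1 added to CPM (−0.95), with CPM as deposited (−0.80) and without Nrde2WT_noCHX replicate 1 (−0.98) or Nrde2WT_CHX replicate 2 (−0.94).

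By the same limits, the 10 largest decreases of protein-coding genes were of regulators, transporters and enzymes. Zc3h12a (ENSMUSG00000042677, chr4:125118423-125127840), which encodes the RNase Regnase-1, had 15.8, 16.6, 10.02 and 9.18 CPM untreated and 1.97, 1.90, 1.62 and 1.30 with CHX (log2 fold change −2.72, adjusted p = 1.4e-09). It belongs to a list of 38 AU-rich element and deadenylation factors, of which 3 decreased and 1 increased (median −0.18, above 0 with CPM as deposited). Rc3h1 (Roquin-1), which acts on overlapping mRNAs, fell from 95.1 ± 5.83 to 30.9 ± 2.71 CPM (−1.61), and Tob1, a deadenylation adaptor, decreased too (−1.41); Dcp1b, a decapping cofactor, rose from 3.65 ± 1.33 to 14.4 ± 1.45 CPM (1.97). Cnot1, the scaffold of the deadenylase and the most abundant member, was at −0.16 (0.06 with CPM as deposited) and not called. Inhbb, a subunit of activin B, had 22.2, 25.6, 7.52 and 7.73 CPM untreated and 3.03, 3.41, 1.30 and 0.775 with CHX (−2.72), lower in both lines from different levels. Tfrc (ENSMUSG00000022797), the transferrin receptor, whose mRNA is known to be cut or spared according to iron supply, had 570.2, 583, 781 and 801 CPM untreated and 113, 155, 159 and 97.6 with CHX. Each CHX library had less than 160 CPM and each untreated one more than 550 (log2 fold change −2.39 ± 0.32, adjusted p = 2.1e-08). The sialyltransferase St3gal4 (−2.25) and the thiamine transporter Slc19a2, from 134 ± 6.07 to 31.1 ± 2.57 CPM (−2.10), also decreased.

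Mat2a (ENSMUSG00000053907, chr6:72432799-72439558) encodes the enzyme that makes S-adenosylmethionine, and its mRNA is known to be controlled through METTL16 hairpins in its 3′ UTR. It had 579.6, 549, 762 and 863 CPM untreated and 97.3, 123, 185 and 159 with CHX. All 4 CHX libraries were below 190 CPM and all untreated ones above 540 (log2 fold change −2.30 ± 0.17, adjusted p = 1.4e-10). The METTL16 motif TACAGAGAA occurred 5 times in its annotated 3′ UTR, and at least once in 311 of 12919 genes (2.41%), 2.17% of increased and 2.19% of decreased ones. The sites are printed with the motif in capitals on the minus strand, in their order along the mRNA, because the motif is repeated in this UTR.
Mat2a site 1, chr6:72434237-72434261: gcgtaggtTACAGAGAAgccttcaa
Mat2a site 2, chr6:72433453-72433477: ttgtgataTACAGAGAAgtcacagg
Mat2a site 3, chr6:72433274-72433298: ggtgtagcTACAGAGAAaccagctt
Mat2a site 4, chr6:72433159-72433183: ggcgtaagTACAGAGAAgccatcac
Mat2a site 5, chr6:72432940-72432964: tggtgtggTACAGAGAAgccagctt

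Ribosomal protein mRNAs are translated in step with growth. Of the 83 cytosolic ribosomal protein genes, 14 decreased, 69 were not called, and the median log2 fold change was −0.70. The sum over the list was 22305, 21936, 19139 and 20004 CPM untreated and 14787, 14490, 12458 and 13028 with CHX, lower in each library of both lines. Rpl10 had 17.3, 15.4, 17.4 and 18.98 CPM untreated and 3.89, 3.85, 4.46 and 4.24 with CHX (4.01-fold lower, adjusted p = 1.3e-09), and Rps27a (−1.76) and Rps29 (−2.03, under 3 CPM in every library) decreased. Rpl4, the most abundant member, had 3081, 2785, 2519 and 2573 CPM untreated and 1925, 1862, 1578 and 1638 with CHX (−0.65, not called). These genes have many processed pseudogenes: a median of 52.4% of their 50-base windows had an exact copy elsewhere in the genome, with 85.4% in Rpl10, 72.4% in Rps27a, 76.0% in Rps29 and 16.5% in Rpl4. Of the 7 members with copies of under 10% of their windows none was called (median −0.59), so the called members are ones of which only a part of the reads could be counted.

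Gapdh (ENSMUSG00000057666), a glycolytic enzyme often used as a reference, had 50.4, 53.8, 54.3 and 59.6 CPM untreated and 8.20, 9.26, 9.12 and 7.82 with CHX (−2.63, adjusted p = 4.5e-11). An exact copy elsewhere was found for 94.0% of its windows, so these values rest on a small part of its mRNA. The importin Kpna2, from 34.03 ± 11.1 to 6.55 ± 1.65 CPM (−2.31), had copies of 92.7%. Of 23 reference housekeeping genes, 2 decreased, Gapdh and Tubb5, and the median was −0.58; the 14 with copies of under 10% had a median of −0.45 and 1 decrease, that of Tubb5. Actb had 4137, 4392, 3624 and 3452 CPM untreated and 2646, 2864, 2347 and 2176 with CHX (−0.64, adjusted p = 9.5e-07; not called). Fold changes were lower for abundant protein-coding genes: those above 200 CPM untreated had a median of −0.41 and those from 50 to 200 CPM −0.23. Those under 1 CPM had a median of 0.82, with 530 of 1282 increased and 0 decreased. That value is partly set by the filter: testing needed a mean of 0.5 CPM over both conditions, which many such genes can reach only by a rise with CHX.

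Translation factors load ribosomes and move them along, and the further lists cover ribosome assembly, protein breakdown, mitochondria and metabolism. Of 41 translation initiation and elongation factor genes, 2 decreased (median −0.51). These were Tpt1, from 11.5 ± 6.08 to 4.55 ± 1.81 CPM (−1.21), whose conditions overlap between lines and which was not called without the line in the model or with CPM as deposited, and Eif4ebp2 (−1.09), not called with CPM as deposited. Eef2, the elongation factor that moves the ribosome along, was at −0.49 and not called. In 6 further lists, given here with the value of their most abundant member, each gene lay under 2-fold. Ribosome biogenesis factors lay between −0.88 and 0.23 (43 genes, median −0.38; Ncl −0.70), proteasome subunits between −0.76 and 0.82 (46 genes, median −0.45; Psme4 −0.33) and nuclear-encoded mitochondrial ribosomal proteins between −0.98 and 0.22 (77 genes, median −0.33; Mrpl45 0.02). Mitochondrially encoded genes lay between −0.93 and −0.41 (7 genes, median −0.57; mt-Co1 −0.51), cholesterol synthesis and uptake genes between −0.96 and 0.54 (27 genes, median −0.50; Hmgcs1 −0.83) and polyamine genes between −0.76 and 0.18 (14 genes, median −0.33; Eif5a −0.76). The Mrpl45 value changed sign, to −0.02, without Nrde2WT_noCHX replicate 1. Of 247 solute carrier genes, which move small molecules across membranes, 28 increased and 6 decreased (median 0.14), shares close to the 11.7% and 2.62% of all genes. Slc6a14, an amino acid transporter, had 0.330, 0.552, 0.533 and 0.255 CPM untreated and 6.60, 6.15, 5.19 and 4.29 with CHX (3.13), and Slc16a6 rose from 10.9 ± 1.68 to 48.1 ± 6.00 CPM (2.11). Slc2a3, a glucose transporter and the most abundant member, was at −0.49 and not called. Txnip, which restrains glucose uptake and was chosen after its values were seen, had 152, 153, 152 and 169.7 CPM untreated and 1702, 1751, 1787 and 1626 with CHX (3.45, adjusted p = 3.5e-13).

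Pluripotency genes moved in different directions. Of 28 tested, 3 decreased and 1 increased (median −0.23). Fgf4, the autocrine growth factor of stem cells, had 388, 378, 271 and 327 CPM untreated and 132, 133, 93.6 and 76.2 with CHX (log2 fold change −1.67, adjusted p = 2.6e-09). Tfcp2l1, a naive-state factor, had 1387, 1241, 905 and 818 CPM untreated and 518, 524, 321 and 325 with CHX (log2 fold change −1.37, adjusted p = 4.8e-10). Nanog had 970.3, 901, 788 and 962 CPM untreated and 405, 439, 354 and 375 with CHX (log2 fold change −1.20, adjusted p = 7.5e-09). None of the 3 overlapped between conditions; with CPM as deposited Nanog was at −0.98, under the 2-fold limit. Pou5f1 (−0.73), Klf4 (−0.64), Esrrb (−0.25), Sox2 (0.40) and Rif1 (0.35), the most abundant, were not called. Summed over the 7 markers of undifferentiated cells, the level was 5634, 5420.0, 4459 and 4844 CPM untreated and 3621, 3596, 2828 and 2924 with CHX; 2 of them decreased (median −0.54). The 6 tested 2-cell-stage genes lay between −0.80 and −0.22 (median −0.34), and Zscan4d had 1.89, 1.84, 1.09 and 1.33 CPM untreated and 1.65, 1.60, 0.569 and 1.55 with CHX (−0.22). Its fold change was 0.02 without Ccdc174WT_CHX replicate 1.

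Markers of other cell types were measured beside this, and their part in the results was not tested. Primitive endoderm markers summed to 11.6, 9.97, 7.36 and 7.48 CPM untreated and 17.98, 16.2, 13.6 and 13.0 with CHX; 4 of the 6 tested increased (median 1.00), all 4 of them under 3 CPM. They were Foxa2 (1.77), Sox17 (1.17), Pdgfra (1.01) and Gata6 (1.00), while Gata4, the most abundant, was at 0.35 and not called. Foxa2 and Gata6, at 0.0527 and 0.290 CPM untreated, reached the mean of 0.5 CPM needed for testing only through their CHX libraries. Sox7, at 0.301 CPM untreated and 0.141 with CHX, was under it and not tested. The count and the median therefore lean towards members that rose. With 1 in place of 0.25 added to CPM, all 4 were under the 2-fold limit, Foxa2 at 0.84, Sox17 at 0.75, Pdgfra at 0.71 and Gata6 at 0.51, and without the line in the model the adjusted p of Foxa2 was 0.0174. The calls of Pdgfra and Gata6 were lost without any 1 library of the Ccdc174 line: without Ccdc174WT_noCHX replicate 1 (0.88 and 0.98), Ccdc174WT_noCHX replicate 2 (0.96 and 0.98), Ccdc174WT_CHX replicate 1 (0.96 and 0.97) and Ccdc174WT_CHX replicate 2 (0.90 and 0.99). Of 5 trophectoderm markers, Gata3 (1.29) and Tfap2c (1.27) increased (median 0.28), Krt8, the most abundant, was at −0.94, and Elf5 and Hand1 stayed under 0.5 CPM; the list summed to 103, 81.1, 75.8 and 80.0 CPM untreated and 94.2, 79.9, 68.8 and 71.3 with CHX. Of 5 epiblast and primitive streak markers, Otx2 increased and Eomes decreased (median −0.32), with Dnmt3b the most abundant (−0.65) and Fgf5 under 0.5 CPM throughout. Their sum was 134, 168, 143 and 114 CPM untreated and 177, 212, 109 and 97.5 with CHX. Otx2 had 33.4, 27.7, 6.57 and 8.98 CPM untreated and 112, 119, 31.8 and 32.98 with CHX (1.98), higher in each line although the lines overlap, and without the line in the model the adjusted p was 0.0262 for Otx2 and 0.0114 for Tfap2c. Eomes was at −1.05. The Eomes call was lost with 1 added to CPM (−0.975), with CPM as deposited (−0.83) and without Ccdc174WT_noCHX replicate 1 (−0.997), Nrde2WT_noCHX replicate 2 (−0.99) or Nrde2WT_CHX replicate 1 (−0.96). Of 5 neural markers, Pax6 increased, with 0.660, 1.26, 0.477 and 0.510 CPM untreated and 17.6, 13.6, 16.04 and 18.4 with CHX (4.15, adjusted p = 2.3e-09), and Tubb3 decreased (−1.79); the median was −0.05 (above 0 with CPM as deposited), and Nes, the most abundant, was at 0.87. The neural list summed to 189, 214, 236 and 224 CPM untreated and 227, 229, 262 and 262 with CHX. Fibroblast feeder markers were scarce, at 2.61, 2.67, 4.13 and 3.20 CPM in sum untreated and 4.53, 4.27, 4.19 and 5.54 with CHX, with Dcn and Lum under 0.5 CPM in every library. Col3a1 increased, from 0.0450 to 1.19 CPM on average (2.28), and Thy1, the most abundant of 3 tested (median −0.24), was at −0.24. Col3a1 passed the filter for testing only through its CHX libraries, so its call says little about the list.

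Genes of G2 and mitosis drive chromosome segregation and division, and genes of G1/S drive entry into DNA replication. Of 35 G2/M genes, 5 decreased and 30 were not called (median −0.50). The mitotic kinase Plk1 had 118, 112, 99.6 and 90.7 CPM untreated and 48.4, 55.8, 37.4 and 35.4 with CHX (log2 fold change −1.26, adjusted p = 6.6e-09). Cdk1 had 302, 293, 279.8 and 317 CPM untreated and 130.3, 145, 127 and 119 with CHX (log2 fold change −1.19, adjusted p = 3.5e-09). Ccnf (−1.21) and Cks2 (−1.33) decreased as well, Cks2 from an untreated mean of 2.50 CPM and with copies of 74.5% of its windows. With CPM as deposited, Cdk1 (−0.97) and Ccnf (−0.98) were under the 2-fold limit, as was Cks2 with 1 added to CPM (−0.92). Top2a, the most abundant member, was at 1751 ± 393 CPM untreated and 1436 ± 206 with CHX (−0.27, not called). The 31 G1/S genes lay between −0.91 and 0.45, all under 2-fold, with a median of −0.13 (above 0 with CPM as deposited), and Mcm5, the most abundant, was at −0.23.

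Among noncoding RNAs, nuclear long noncoding RNAs act in gene silencing and nuclear structure. Of 16 tested, 5 decreased, 1 increased and 10 were not called (median −0.62). Mir17hg, the precursor of the miR-17 cluster, had 34.8, 39.6, 20.9 and 22.8 CPM untreated and 7.56, 10.3, 4.75 and 3.35 with CHX (−2.21, adjusted p = 1.3e-08). Neat1, the scaffold of paraspeckles, had 42.3, 33.5, 50.1 and 45.1 CPM untreated and 11.4, 12.3, 14.1 and 14.1 with CHX (−1.69, adjusted p = 2.4e-09). Tsix (−1.59) and the imprinting RNA Kcnq1ot1 (−1.27) decreased, and Malat1, the most abundant, was at −0.83 and not called. Among other gene types with at least 5 CPM in the higher condition and no overlap, the largest decreases were those of Mir124a-1hg, with 9.27, 6.35, 3.12 and 2.49 CPM untreated and 0.542, 0.667, 0.205 and 0.0912 with CHX (−3.08), and AC121821.1, from 50.8 ± 5.35 to 7.44 ± 1.72 CPM (−2.75). Gm42752 (ENSMUSG00000106621) had 0, 0, 0 and 0.0283 CPM untreated, a single read in all, and 4.90, 4.91, 8.40 and 5.66 with CHX. Gm42743, a long noncoding RNA, had 0.120, 0.184, 0.112 and 0 CPM untreated and 7.95, 5.85, 4.94 and 5.47 with CHX (4.16), and Cep83os rose from 0.346 ± 0.109 to 7.09 ± 0.466 CPM (3.64). Gm26917 (chr17:39843013-39846341), the most abundant called gene, had 16439, 27099, 12158 and 10143 CPM untreated and 5875, 6688, 4811 and 3960.0 with CHX (−1.55, adjusted p = 9.9e-07). It lies beside Gm42418, which RefSeq lists as a synonym of an 18S ribosomal RNA pseudogene.

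Increased and decreased protein-coding genes differed in structure from all genes. A single exon made up the main transcript of 9.18% of increased genes (5.62% without the histone list), 3.48% of decreased genes and 2.73% of all. An annotated decay-prone transcript was present in 23.2% of increased, 16.1% of decreased and 27.8% of all genes. In the study's ribosome profiling of WT cells, from other samples, the median log2 ratio of footprints to RNA was −1.22 for increased genes, −0.75 for decreased genes and −1.09 for all, from the 636 of 1427 increased, 211 of 230 decreased and 10830 of 13173 of all genes for which it could be computed. Untreated level and structure differ together between these groups, and their parts were not separated.

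Both lines gave much the same response. In the Nrde2 line 2102 genes were called (14.1%) and in the Ccdc174 line 2261 (15.2%); 1731 were called in both in the same direction, 82.3% of the first and 76.6% of the second, and 0 in opposite directions. Across genes the fold changes of the lines correlated at r = 0.94, where genes are not independent replicates. Tested directly, the difference between lines passed the thresholds in 0 genes by limma (0%), with 1395 genes at an unadjusted p under 0.05 and a smallest adjusted p of 0.154; edgeR gave 0, DESeq2 6 and a block for replicate numbers 3. Serpina3i, a serine protease inhibitor and one of the 10 largest increases, was at 4.10 in the Nrde2 line and 5.32 in the Ccdc174 line, and Cdkn1a at −2.04 and −3.01, differences that did not pass. The further 4 untreated WT libraries of the study, from the Nrde2 and Mtrex lines and not used in the fit, had a mean nearer to the untreated than to the CHX mean in 1927 of the 2139 called genes (90.1%).

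Cells labelled as Nrde2 knockout (100 nM 4-hydroxytamoxifen for 4 d) or as depleted of CCDC174 (500 nM dTAG-13 for 24 h) received the same CHX treatment and are together called deficient here. In the cells labelled knockout, Nrde2 RNA was at 20.8 and 20.7 CPM untreated, below untreated WT cells, and at 264 and 254 with CHX, a level not below that of WT cells with CHX. Counts per gene do not show whether the deletion is present. The study reports that western blots verified the depletion of both proteins, and these blots are not among the files used. In the cells labelled depleted, Nrde2 RNA was at 57.4 and 55.7 CPM untreated and at 254.6 and 236 with CHX. In these deficient cells, in libraries that share none with the WT comparison, 2086 of 15272 genes were called (13.7%). Of the WT calls, 1586 were called in the same direction there, 74.1% of the WT list and 76.0% of the deficient list, and 0 in the opposite direction. Tnfaip3 was at 5.09 beside 5.37 in WT, Hist1h2aa at 5.26 beside 5.98 and Mat2a at −2.31 beside −2.30; Gadd45g was at 4.84 beside 6.08 and Tcim at 4.396 beside 5.21, differences that did not pass. Egr1 was unlike in the 2 kinds of deficient cells, at 130.3 and 100.2 CPM with CHX in cells labelled knockout and 4.19 and 5.73 in cells labelled depleted. The difference between deficient and WT cells passed the thresholds in 30 of 15133 genes (0.198%), 8 with a higher and 22 with a lower fold change in deficient cells, and 21 of the 22 were increased in WT cells. The WT fold change is subtracted in this difference, so the 22 were partly picked for a high WT fold change. Serpina3i was among the lower ones, at 3.21 beside 4.71 in WT cells (difference −1.51, adjusted p = 0.0031). With the replicate number as a block, 50 genes passed. The count was 46 without Ccdc174dTAG_noCHX replicate 1, 17 without Ccdc174dTAG_CHX replicate 1, and 19 each without Ccdc174WT_CHX replicate 2, without Nrde2WT_CHX replicate 1 and without Nrde2KO_CHX replicate 1.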

How the data were processed

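RNA-seq of 28 libraries (8 used for the main comparison) was aligned by the authors to mm10 with STAR 2.7.3a, counted per GENCODE M23 gene with featureCounts (unique reads on the correct strand) and deposited as CPM of 55335 genes; the authors also deposited Ribo-seq as CPM per gene. All values were within 0.05 of whole multiples of 1 read, so reads were recovered for depth and for edgeR and DESeq2. Genes were named with GENCODE M21 of GRCm38 (55154 matched). CPM divided by a median-of-ratios factor, plus 0.25, in log2, were fitted with limma 3.58.1 (R 4.3.3) with a mean-variance trend, for genes averaging 0.5 CPM or more, with CHX and line as terms. A call needed a Benjamini-Hochberg adjusted p under 0.01 and over 2-fold, the study's thresholds. At 36.1 to 40.4 M reads, 1 CPM is about 36 to 40 reads.

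Line responses and their difference came from a fit of 4 groups, deficient cells from a like fit, and the deficient-minus-WT difference from 8 groups. Alternatives were 0.1 or 1 added, no filter or 1 CPM, CPM as deposited, TMM, the replicate number as a block, no line term, edgeR 4.0.16 quasi-likelihood, DESeq2 1.42.0, each line fitted alone and each library left out. Deviations of libraries with the same number correlated (0.52 in the Nrde2 line, 0.41 in the Ccdc174 line, over 10368 genes), so replicate numbers pair samples to some degree.

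Named genes were the 10 largest increases and 10 largest decreases of called protein-coding genes (at least 5 CPM in the higher condition, no overlap, same sign in both lines), the 5 and 3 largest of other types, up to 4 called members and the most abundant member of each list, the 5 largest deficient-minus-WT differences, the targeted genes and the 5 most abundant called genes. Others were chosen after their values were seen, as were tubulins, the noncoding classes and the count of exact genome copies of 50-base mRNA windows. Lists came from general knowledge or symbol patterns. Some genes and 1 sequence are not reported. Each tool was also tested on simulated data. The members and lists were chosen with earlier results of these data known.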

Additional observations from a re-analysis of the deposited data

Results flagged for a closer look

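Among the 30 genes that passed the test of the difference between deficient and WT cells over 16 libraries, the 5 with the largest log2 difference are given. Each was increased in WT cells, which is favoured because the WT fold change is subtracted in the difference. The order by adjusted p is another: Mink1 (difference 1.16) and Aaas (1.00) had the smallest value, 7.4e-06 by limma. Gna14, a G protein subunit, had a difference of −2.54 (log2, adjusted p = 8.7e-04), from a mean of 0.0887 to 5.54 CPM in WT cells and from 0.238 to 1.38 in deficient cells. Fgg, a fibrinogen chain, had a difference of −1.98 (adjusted p = 0.00195), from 0.191 to 2.07 CPM in WT cells and from 0.157 to 0.293 in deficient cells, where it was under the limit for testing. It entered the test of the difference only through the WT libraries with CHX, where it was high, so little can be read from that difference. Slc1a4, a neutral amino acid transporter, had a difference of −1.88 (adjusted p = 1.6e-05): WT cells had 4.80, 5.68, 12.04 and 17.1 CPM untreated and 35.98, 31.2, 76.03 and 100.4 with CHX, cells labelled Nrde2 knockout 8.12 and 8.56 untreated and 10.3 and 12.6 with CHX, and cells labelled CCDC174-depleted 30.8 and 34.7 untreated and 61.2 and 70.9 with CHX. Socs3, which restrains LIF signalling, had a difference of −1.87 (adjusted p = 4.5e-05): WT cells had 98.97, 96.6, 77.3 and 59.6 CPM untreated and 432, 292, 389.6 and 469 with CHX, cells labelled Nrde2 knockout 71.9 and 65.3 untreated and 65.7 and 52.3 with CHX, and cells labelled CCDC174-depleted 80.8 and 59.8 untreated and 121 and 155 with CHX. Crispld2, a secreted protein gene, had a difference of −1.85 (adjusted p = 0.0018), from 0.319 to 4.59 CPM in WT cells and from 0.470 to 1.41 in deficient cells. Nrde2 RNA itself was at 264 and 254 CPM with CHX in the cells labelled Nrde2 knockout, a level not below that of WT cells with CHX. Without CHX it was lower in these cells than in WT cells, and the study reports western blots that verified the protein depletion. A difference between the 2 kinds of deficient cells was not tested.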

How the results depend on the processing

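The count in WT cells lay between 1738 and 2583 under all alternatives but 1: with 1 added in place of 0.25 it was 1361 (1366 in the Nrde2 line, 1490 in the Ccdc174 line, 1312 in deficient cells). Leaving out 1 library gave 2062 to 2217 in WT cells, 1849 to 2126 in the Nrde2 line, 2006 to 2325 in the Ccdc174 line, 0 to 0 for the difference between lines, 2032 to 2170 in deficient cells and 17 to 46 for the deficient-minus-WT difference; a lone library was taken to vary like the other groups. The difference between lines was 3 with the replicate number as a block and 6 with DESeq2. The deficient-minus-WT difference, 30 genes, was 50 with the block, 17 with no filter on low values and 19 with edgeR. Of 129 called named genes, 111 were called the same way under each of the 18 alternatives in which they were tested, and 0 changed sign. Some low genes were not tested under the limit of 1 CPM, such as Col3a1 at 0.0450 CPM untreated and 1.19 with CHX. Under at least 1 alternative, Bbc3, Ccnf, Cdk1, Cks2, Eif4ebp2, Eomes, Foxa2, Gata6, Hspa1b, Lefty1, Mdm2, Nanog, Otx2, Pdgfra, Sox17, Tfap2c, Tpt1 and Tuba1b kept their direction but were not called. Genes that were not called and changed sign were Asns (0.0373), Cnot1 (0.0622) and Gas5 (0.0612) with CPM as deposited; Zscan4d, at −0.431 without Ccdc174WT_CHX replicate 2 and 0.0205 without Ccdc174WT_CHX replicate 1; Mrpl45, at −0.0221 without Nrde2WT_noCHX replicate 1 and 0.0555 without Ccdc174WT_CHX replicate 2; Myc, at −0.22 without Nrde2WT_noCHX replicate 1 and 0.256 without Ccdc174WT_CHX replicate 2; and Xbp1, at −0.0272 without Nrde2WT_CHX replicate 1 and 0.0602 without Nrde2WT_CHX replicate 2. The cause was not tested. Genes near 0.5 CPM rest on about 20 reads a library.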

Other observations

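Alpha and beta tubulin genes, which build microtubules and whose mRNAs are known to be degraded during translation when free tubulin is in excess, were lower with CHX; the group was formed after values were seen. Of 12 tested, 7 decreased and 5 were not called (median −1.19). Tubb5 had 3189, 3299, 2528 and 2490.1 CPM untreated and 1308, 1492, 1035 and 932 with CHX (−1.28, adjusted p = 3.3e-09). Tubb4b had 452, 476, 444 and 412 CPM untreated and 118, 138, 128 and 109.9 with CHX (−1.85, adjusted p = 1.7e-10). In both genes every CHX library was below every untreated one, and Tuba1c (−1.48), Tuba4a (−1.32) and Tuba1b (−1.18) decreased as well, the last not with CPM as deposited (−0.96); Tuba1a was at −0.93 and not called. A median of 41.2% of the 50-base windows of these mRNAs had an exact copy elsewhere, and the 3 genes with copies of under 10% of windows all decreased (median −1.28).

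RNA classes were also grouped after values were seen. Of 67 tested genes annotated as snoRNA, 32 decreased and 35 were not called (median −0.98), with 11 of 18 Snord genes and 9 of 12 Snora genes among them. Snora41 had 3.30, 3.47, 4.24 and 4.08 CPM untreated and 0.394, 0.593, 0.523 and 0.433 with CHX (−2.45, adjusted p = 1.6e-08). The more abundant Snora73b, Gm26448 and Snord17, at 157, 122 and 118 CPM untreated, were at −0.90, −0.82 and −0.82 and not called. Of 14 annotated as miRNA, 8 decreased (median −1.58). All of them but Snord43 (−1.63), named as a snoRNA, belong to the Mir290 to Mir295 cluster of stem cells, so the count rests on a single locus. Mir295 had 2.28, 2.55, 1.97 and 3.20 CPM untreated and 0.542, 0.296, 0.432 and 0.160 with CHX (−2.20), and Mir291b had 8.91, 9.23, 8.45 and 10.2 and 1.99, 2.52, 2.00 and 1.80 (−2.03). Every CHX library was lower for Snora41, Mir295 and Mir291b. Mature miRNAs are too short for such libraries, so precursors or host transcripts may be what was counted for them. For snoRNA genes, the counts do not separate mature RNAs from precursors or host transcripts. Of 314 long intergenic RNAs, 93 increased and 11 decreased (median 0.49), and of 201 antisense genes 59 and 10 (0.62), whereas of 243 genes of the unverified TEC class 23 increased and 58 decreased (−0.54). Over all genes, 11.7% increased and 2.62% decreased. The median untreated levels of these classes were low, at 1.16, 0.87 and 1.02 CPM. Among protein-coding genes under 1 CPM untreated, 530 of 1282 increased, and among those from 1 to 2 CPM 157 of 826. The increases of long intergenic and antisense RNAs were therefore not separated from their low level and the filter for testing. Chromosome 13, which holds the main histone cluster, had 134 of 614 tested genes increased (21.8%), and the other autosomes between 8.81% and 14.0%.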
